A study of Mus musculus with 6 samples.

Results

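The genes described here encode 8 proteins that the immune system attacks in organ-specific autoimmune disease: Gad1 and Gad2 (brain and pancreatic islet), Rbp3 and Sag (retina), Tg (thyroid), Atp4a and Atp4b (stomach) and Mog (myelin). They were chosen by name, as classic antigens of these organs, with earlier results of these data known. Each of the 8 has 1 probe set of its own on the array, of 19938 genes that have at least 1. Expression was measured in medullary epithelial cells sorted from the thymus as CD45-, intermediate for Ly51 and high for MHC class II, from mice 4 to 6 weeks old. The 3 Aire KO mice were Aire-/- on a (B6xNOD)F1 background, and the 3 Aire WT mice were (B6xNOD)F1. Both groups therefore carry 1 genome from each of B6 and NOD, the strain known for spontaneous autoimmune diabetes. Each mouse gave 1 array, so each SD holds the differences between mice and between arrays together. The SE, intervals and p-values come from limma, which also draws on the variances of the other genes in the fit. The labels name the genotype but not the part of Aire that was deleted.

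Developing T cells that bind a self-protein strongly in the thymus are deleted or turned into regulatory cells. Medullary epithelial cells take part by transcribing many genes that are otherwise limited to single organs, and the regulator Aire drives a large share of this transcription. Some organ antigens are made in these cells without Aire, under other regulators. People and mice that lack Aire develop autoimmunity against several organs, among them stomach, thyroid, eye and islets. Whether the transcripts of known disease antigens differ between the genotypes is the question that the comparison addresses.

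The arrays were alike in scale, with median intensities between 92.9 and 98.2, and Pearson correlations of log2 intensity across probe sets were at least 0.990 within a genotype and 0.976 to 0.985 between genotypes. Aire itself was brighter in KO (12.41 ± 0.02) than in WT (11.97 ± 0.04, SD, n = 3 each) on a probe set along the whole transcript, which leaves the deleted part unread and the labels unchecked by this gene. All 10 medullary epithelial markers passed the intensity filter. In KO 3 of them, Epcam, Krt5 and Krt14, fell and 7 were not called, where 14.1% of all tested genes fell. All 7 thymocyte markers on the array passed the filter as well, so passing does not check the labelled cell type. All values below are log2 intensities, each difference is KO minus WT, and 3 arrays a group set the precision. In sorted populations, fewer cells that express a gene and less of its RNA per cell cannot be told apart.

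Of the 8 antigen genes, 5 were bright enough to test, namely Gad1, Tg, Atp4a, Atp4b and Mog. A gene was tested if its log2 intensity exceeded 5.97, the 40th percentile of all values, on at least 3 of the 6 arrays. Gad2, Rbp3 and Sag lay under that level on every array of both genotypes. Among the 5, Mog rose in KO, 0 fell and 4 did not pass limma at an adjusted threshold of 0.05. Over all 13925 tested genes 26.1% passed, 12.0% as higher and 14.1% as lower. The 8 differences ran from -0.23 to 0.36, 4 below and 4 above 0. The median of the 5 tested genes was -0.19, against 0.015 over all tested genes, and that of all 8, the dim ones included, was 0.007.

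**Figure D1:**
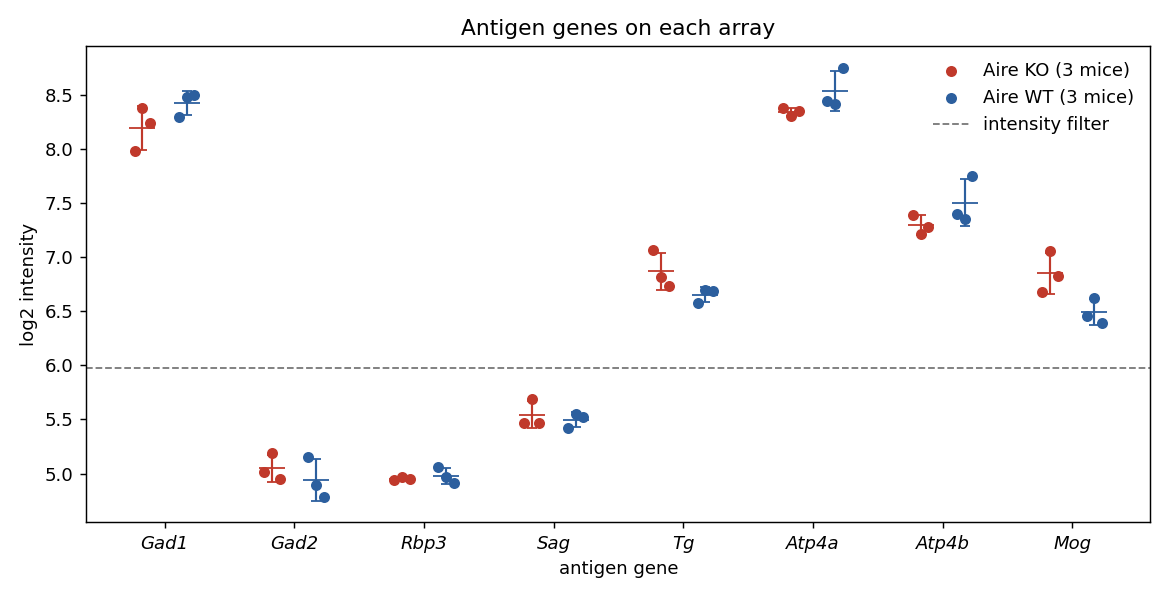
Log2 intensity (vertical axis) of each antigen gene (horizontal axis) in 3 Aire KO and 3 Aire WT mice. Points are arrays, horizontal marks are means, bars are 1 SD and the dashed line is the intensity filter at 5.97. Gad2, Rbp3 and Sag lie under the line on all 6 arrays, and the groups do not overlap for Tg, Atp4a and Mog.

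The 300-base promoter windows of 3 of the genes are shown because the genes stand for the 3 outcomes: Gad1, tested and not called, Gad2, its dim sister gene, and Mog, the only one of the 8 that was called. The windows are from RefSeq, build GRCm38.p6, and span 250 bases before to 50 after the gene's start, 5′ to 3′. CG dinucleotides are in capitals. The table holds a window for 6 of the 8 genes and none for Tg and Atp4b.
Gad1 (chr2:70561879-70562178, plus strand): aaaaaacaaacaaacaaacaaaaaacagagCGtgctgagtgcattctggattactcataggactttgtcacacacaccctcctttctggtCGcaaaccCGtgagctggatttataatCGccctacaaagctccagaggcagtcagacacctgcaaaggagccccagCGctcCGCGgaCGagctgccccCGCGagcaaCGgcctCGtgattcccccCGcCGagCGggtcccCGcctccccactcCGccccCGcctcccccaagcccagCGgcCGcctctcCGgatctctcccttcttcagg
Gad2 (chr2:22622077-22622376, plus strand): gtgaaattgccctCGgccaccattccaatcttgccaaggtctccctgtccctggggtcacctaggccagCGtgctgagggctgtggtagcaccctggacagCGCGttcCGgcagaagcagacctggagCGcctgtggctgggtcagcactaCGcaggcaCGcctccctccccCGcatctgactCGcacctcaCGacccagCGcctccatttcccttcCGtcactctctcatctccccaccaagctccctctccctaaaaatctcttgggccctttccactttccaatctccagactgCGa
Mog (chr17:37023349-37023648, minus strand): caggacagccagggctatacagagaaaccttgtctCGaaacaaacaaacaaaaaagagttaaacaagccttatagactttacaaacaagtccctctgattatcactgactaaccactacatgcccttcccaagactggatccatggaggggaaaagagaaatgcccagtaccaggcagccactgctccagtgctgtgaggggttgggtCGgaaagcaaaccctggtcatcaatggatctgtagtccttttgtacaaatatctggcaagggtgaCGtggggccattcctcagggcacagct
The Gad1 window holds 21 CG, a number reached by 24.8% of all 32851 promoter windows of this length, and the Gad2 window holds 14, reached by 36.3%. The Mog window holds 3, as does that of Sag, a number that 76.7% of all windows reach. Rbp3 and Atp4a have 2 each, reached by 85.9%. The median window holds 7, so the Gad1 and Gad2 windows lie above it and the other 4 below. Bright and dim antigen genes occur on both sides of that median: Gad1 and Gad2, a tested and a dim gene, are CG-rich, and Atp4a and Rbp3, again a tested and a dim gene, are CG-poor.

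Gad1 and Gad2 encode the 2 forms of glutamate decarboxylase, the enzyme that makes the inhibitory transmitter GABA in neurons and in islet beta cells. The Gad2 product is a main target of autoantibodies in type 1 diabetes. Gad1 (probe set 10472707, chromosome 2) had 7.97, 8.37 and 8.23 in the KO mice, against 8.30, 8.47 and 8.50 in the WT mice. The groups overlapped, because KO replicate 2 lay above WT replicate 1, and KO replicate 1 was the lowest of the 6. The difference was -0.23 (SE 0.11, 95% confidence interval -0.47 to 0.01, limma adjusted p = 0.15), and it was -0.12 without KO replicate 1. A fall of more than 1.38-fold lies outside the interval.

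Gad2 (probe set 10469672, also on chromosome 2) was dim. It had 5.01, 5.19 and 4.95 in KO mice, against 5.16, 4.89 and 4.78 in WT mice. The groups overlapped across most of their range. The difference was 0.11, with a 95% confidence interval of -0.13 to 0.34 when all genes were fitted with no filter. RMA values carry no detection call, and at this brightness a true change can be hidden by background, so the interval bounds the measured signal and not the transcript.

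The retinal antigens were dim too. Rbp3 encodes the retinoid carrier of the space between photoreceptors and pigment epithelium, and its protein is a target of eye autoimmunity in Aire-deficient mice. Rbp3 (probe set 10414034, chromosome 14) had 4.94, 4.97 and 4.95 in KO mice, against 5.06, 4.97 and 4.91 in WT mice. The KO values lay inside the WT range. The difference was -0.03 (interval -0.21 to 0.15, fit with no filter).

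Sag encodes retinal arrestin, which ends the light response of photoreceptors and is known as the S-antigen of uveitis. Sag (probe set 10348301, chromosome 1) had 5.47, 5.69 and 5.47 in KO mice, against 5.42, 5.55 and 5.53 in WT mice. KO replicate 2 was the highest, and the other KO arrays lay within the WT range. The difference was 0.04 (interval -0.16 to 0.24, fit with no filter). For Gad2, Rbp3 and Sag the adjusted p-values of that limma fit were 0.52, 0.83 and 0.77, in a fit that called 19.9% of all 19938 genes.

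Tg encodes thyroglobulin, the large protein on which thyroid hormone is built and the antigen of autoimmune thyroiditis. Tg (probe set 10424493, chromosome 15) had 7.06, 6.81 and 6.73 in KO mice, against 6.57, 6.69 and 6.69 in WT mice. Every KO array lay above every WT array, but KO replicate 3 only by a small step. The difference was 0.22 (SE 0.10, interval 0.002 to 0.43), with a limma p of 0.049 before adjustment and 0.13 after it, so Tg was not called. It was 0.12 without KO replicate 1, the highest array.

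Atp4a and Atp4b encode the catalytic and the glycosylated subunit of the gastric proton pump of parietal cells, the antigen of autoimmune gastritis. Atp4a (probe set 10552008, chromosome 7) had 8.38, 8.31 and 8.35 in KO mice, against 8.44, 8.42 and 8.75 in WT mice. Every KO array lay below every WT array, and WT replicate 3 stood apart above the rest. The difference was -0.19 (SE 0.10, interval -0.41 to 0.03, limma adjusted p = 0.18).

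Atp4b (probe set 10577154, chromosome 8) had 7.39, 7.21 and 7.27 in KO mice, against 7.40, 7.35 and 7.75 in WT mice. The groups overlapped, and WT replicate 3 was again the highest of the 6. The difference was -0.21 (SE 0.11, interval -0.45 to 0.04, limma adjusted p = 0.19). Without WT replicate 3 the differences were -0.08 for each of the 2 subunits (limma adjusted p = 0.46 for Atp4a and 0.52 for Atp4b). Falls of more than 1.33-fold for Atp4a and 1.37-fold for Atp4b lie outside the intervals from all 6 arrays. The subunits followed each other over the 6 arrays (Pearson r = 0.983, as a description), and 12 of the other tested genes were more like Atp4a than Atp4b was.

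Mog encodes myelin oligodendrocyte glycoprotein, a minor protein on the outer face of central myelin that is used to induce experimental autoimmune encephalomyelitis in mice. Mog (probe set 10450845, chromosome 17) had 6.67, 7.05 and 6.83 in KO mice, against 6.45, 6.63 and 6.39 in WT mice. Every KO array lay above every WT array, with KO replicate 1 and WT replicate 2 closest to each other. The mean was 6.85 ± 0.19 in KO and 6.49 ± 0.12 in WT (SD, n = 3 each), a difference of 0.36 (SE 0.11, interval 0.12 to 0.60, limma adjusted p = 0.030), or 1.28-fold. The median rise of all 1676 genes called higher was 0.39, and 57.6% of them rose by more than Mog did.

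The Mog call did not hold without any 1 of 4 of the arrays. With KO replicate 2 left out the difference was 0.26 (limma adjusted p = 0.10), and with KO replicate 3 left out 0.37 (0.073). With WT replicate 1 left out it was 0.34 (0.074), and with WT replicate 3 left out 0.31 (0.082). It stayed above 0 in each of the 14 alternative fits that included Mog, from 0.26 to 0.45. Groups that do not overlap were also common: 3 of the 5 tested antigen genes (Tg, Atp4a and Mog) had them, as did 42.4% of all tested genes.

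**Figure D2:**
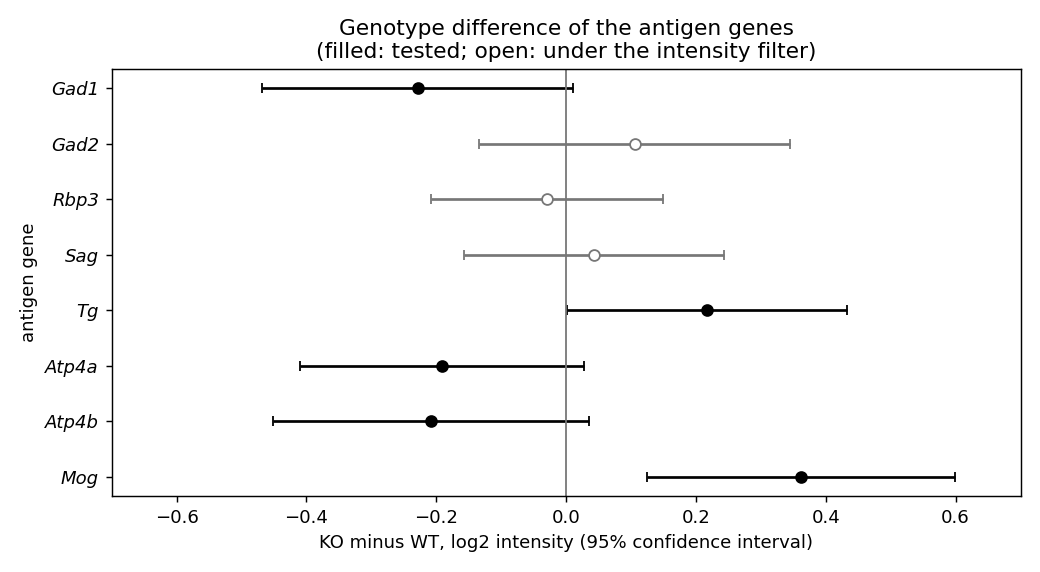
KO minus WT difference in log2 intensity (horizontal axis) of each antigen gene (vertical axis), with 95% confidence intervals over 3 KO and 3 WT mice. Filled points were tested, open points lie under the intensity filter and come from the fit with no filter. The intervals of Mog (0.12 to 0.60) and Tg (0.002 to 0.43) lie above 0, that of Tg by a margin too small to see.

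**Figure D3:**
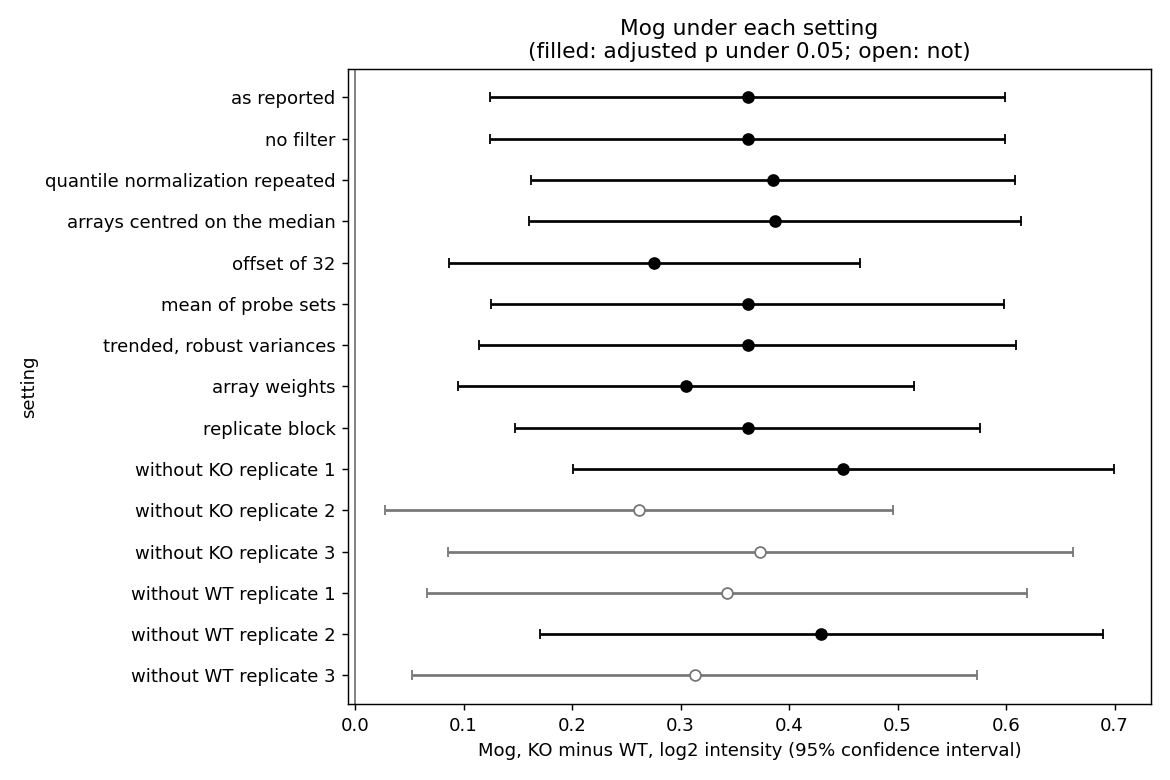
KO minus WT difference of Mog in log2 intensity (horizontal axis), with 95% confidence intervals, as reported and under 14 alternative settings (vertical axis). Filled points passed the adjusted threshold of 0.05, and open points, the 4 fits that leave out KO replicate 2, KO replicate 3, WT replicate 1 or WT replicate 3, did not.

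Other genes of the same organs and pathways were read from 7 lists, written with earlier results of these data known. Of 113 listed genes with a probe set of their own, 67 were tested, and 20 fell and 11 rose, against 14.1% lower and 12.0% higher over all tested genes. Of the 20, 6 were above the filter on no KO array, and of the 11, Grk1 was above it on no WT array, so the filter fixed their direction and the shares are not a like comparison. The size of the changes differed widely between genes of 1 organ, as the plot of the partner genes shows.

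**Figure D4:**
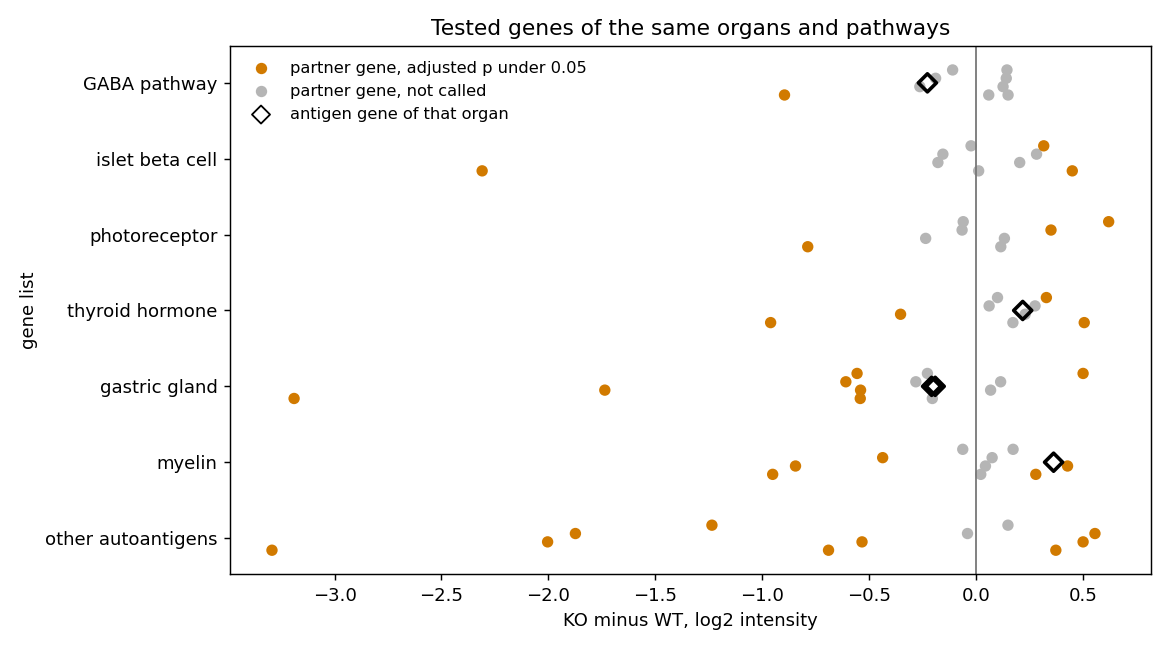
KO minus WT difference in log2 intensity (horizontal axis) of the tested genes on 7 lists (vertical axis). Each point is a gene, orange if its adjusted p was under 0.05, and diamonds are the tested antigen genes of that organ. The gastric list reaches down to -3.19 (Pgc), while Atp4a and Atp4b lie at -0.19 and -0.21.

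On the gastric gland list, the organ of Atp4a and Atp4b, 6 of 12 tested genes fell, 1 rose and the median difference was -0.41, or -0.23 with no filter. Pgc, a pepsinogen gene of chief and mucous cells, had 5.69, 6.13 and 5.99 in KO mice, against 9.10, 8.93 and 9.34 in WT mice. It fell by 3.19 (interval -3.47 to -2.91, limma adjusted p = 2.4e-08), and 1 of its 3 KO arrays lay under the filter, so the background limits the fold. The gastric mucin gene Muc5ac fell by 1.74, with KO replicate 2 under the filter, so the same limit holds. Cblif, which encodes the intrinsic factor that parietal cells secrete for vitamin B12 uptake and which is itself a target in autoimmune gastritis, had 6.52, 6.69 and 6.47 in KO mice, against 7.25, 7.15 and 7.11 in WT mice. It fell by 0.61 (interval -0.80 to -0.42, limma adjusted p = 0.00044). Kcnq1, a potassium channel subunit that recycles potassium for the proton pump, fell by 0.54, and its partner Kcne2 was dim at -0.18. Hdc, which makes histamine in gastric endocrine cells and in mast cells, rose by 0.50.

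Among 9 tested genes of thyroid hormone synthesis 2 fell and 2 rose, with a median of 0.17. Iyd, the deiodinase that recycles iodide from unused hormone precursors, had 6.03, 5.99 and 5.69 in KO mice, against 6.70, 7.03 and 6.86 in WT mice, and fell by 0.96 (limma adjusted p = 9.2e-05). KO replicate 3 of Iyd lay under the filter, so the background limits its fold. Pax8, a transcription factor of thyroid follicular cells, fell by 0.35. Dio1, which activates thyroid hormone in liver, kidney and thyroid, rose by 0.51, and Duoxa1, a maturation factor of the peroxide-making oxidase, rose by 0.33 but lost its call when KO replicate 1 was left out (0.30, limma adjusted p = 0.053). The receptor gene Tshr was dim, at 4.48 ± 0.05 in KO and 4.72 ± 0.14 in WT (SD, n = 3 each). The parathyroid hormone gene Pth, a marker of the gland beside the thyroid, was dim as well, at 3.97 in KO and 4.15 in WT. Chgb, the other parathyroid and C cell marker on the array, was tested and not called at -0.09.

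The myelin list moved in both directions: 3 of 10 tested genes fell and 2 rose, with a median of 0.03. Mal, a raft protein of myelin and of epithelial cells, fell by 0.84. Ugt8a, which makes the main glycolipid of myelin, fell by 0.95 but was above the filter on no KO array. Pmp22, of peripheral myelin and many epithelia, fell by 0.44. Cnp, a phosphodiesterase of myelin also found in other cells, rose by 0.43. Mbp, myelin basic protein, rose by 0.28, a call that was lost when any of the KO arrays (limma adjusted p = 0.063 for replicate 1, 0.057 for replicate 2 and 0.052 for replicate 3) or WT replicate 1 (0.058) was left out, and with the replicate block (0.053). Mag, an adhesion protein of the inner myelin layer, was not called at -0.06.

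In the GABA list 1 of 9 tested genes fell and 0 rose, with a median of 0.06 (limma, all genes in 1 fit). The gene that fell, Slc6a13, encodes a GABA transporter of liver, kidney and meninges, stood at -0.90 and was above the filter on no KO array. Slc32a1, which loads GABA into vesicles, was not called at 0.15. Of 9 tested beta cell genes 1 fell and 2 rose, with a median of 0.011, where 14.1% and 12.0% of all tested genes did. Iapp, the hormone amylin that beta cells release with insulin, had 6.63, 6.18 and 6.54 in KO mice, against 8.45, 8.85 and 8.97 in WT mice. It fell 4.96-fold (limma adjusted p = 7.2e-07). Its KO arrays lay not far above the filter, so the background may limit the fold. The islet antigen genes Ins2 and Ptprn were not called, at -0.18 and -0.16. Ins2 lay near the filter, at 6.29 ± 0.11 in KO and 6.47 ± 0.08 in WT (SD, n = 3 each). Its groups did not overlap, as in 42.4% of all tested genes. Ptprn2, another islet antigen of the phosphatase family, rose by 0.45 (limma adjusted p = 0.0053). Mafa, an insulin gene activator, rose by 0.32 and did not pass when KO replicate 1 (0.25, adjusted p = 0.15), KO replicate 3 (0.33, 0.082), WT replicate 1 (0.34, 0.056) or WT replicate 3 (0.23, 0.095) was left out.

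The photoreceptor list was mostly dim, as were Rbp3 and Sag. Of its 23 genes on the array 15 lay under the filter, and of the 8 tested 1 fell and 2 rose, with a median of 0.03. Rlbp1, a retinaldehyde carrier of the visual cycle, fell by 0.79, with KO replicate 1 under the filter, so the background limits its fold. Grk1, a kinase that acts before arrestin in the photoreceptor's recovery from light, rose by 0.62, but was above the filter on no WT array, so it could only rise and the background limits its fold. Rom1, a disc rim protein, rose by 0.35 and did not pass when KO replicate 1 (0.27, limma adjusted p = 0.13), KO replicate 3 (0.34, 0.090), WT replicate 1 (0.30, 0.092) or WT replicate 3 (0.35, 0.058) was left out.

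Further autoantigens known from the human disease of Aire deficiency or from Aire-deficient mice, and from myasthenia gravis, made up the last list, in which 6 of 11 tested genes fell, 3 rose and the median difference was -0.53, or -0.18 over the 19 on the array with no filter. Cyp1a2, a liver enzyme, fell by 3.29, and had 4.64, 4.59 and 4.56 in KO mice, against 7.73, 7.88 and 8.06 in WT mice. Bpifb1, a lung and airway protein, fell 4.01-fold, and Cyp11a1, the enzyme that starts steroid synthesis, 3.67-fold. Th, which makes the precursor of dopamine, fell by 0.69. Hdc, which also stands on the gastric list, rose by 0.50. Of the 6 that fell, Cyp1a2, Bpifb1, Cyp11a1 and Bpifb9a were above the filter in WT mice but on no KO array, which left no direction open but down, and the background limits their folds. The autoantigen list was written from knowledge that can rest on arrays like these and is not independent evidence of its direction.

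Genes next to the antigens on the chromosome were read in the RefSeq gene order of GRCm38.p6, taking the nearest tested gene on each side. Of these 16 neighbours, 2 rose, 1 fell and 13 did not pass, where 12.0% of all tested genes rose and 14.1% fell. Mog and its neighbour Gabbr1, a subunit of the metabotropic GABA receptor, stood in opposite directions: Gabbr1 had 7.18 ± 0.05 in KO and 7.46 ± 0.03 in WT (SD, n = 3 each) and fell by 0.28 (limma adjusted p = 0.022). The Gabbr1 call was lost without KO replicate 1 (-0.30, adjusted p = 0.052), KO replicate 3 (-0.25, 0.091) or WT replicate 2 (-0.27, 0.063) and with the replicate block (0.056). Znrd1as, on the other side of Mog, was at -0.13. Beside Atp4b, Grk1 of the photoreceptor list rose by 0.62, with every WT array under the filter, while Tfdp1, a cell cycle factor, was at 0.18. Haus5, a spindle protein gene next to Atp4a, rose by 0.41 (limma adjusted p = 0.0038), and Tmem147 was at 0.22. Sla, a signalling adapter gene of lymphocytes that lies inside Tg in the reference, was at 0.22, as Tg was, and was not called.

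The genes most like each tested antigen over the 6 arrays, by Pearson correlation of log2 intensity, were mostly not called either. For Gad1 they were Aldh9a1, Yars and Nsf (r = 0.988, 0.979 and 0.978), and for Tg Hadha, Lmcd1 and Nr1d1 (0.978, 0.977 and 0.977). For Atp4a they were Irs2, Bin1 and Camk2g (0.997, 0.996 and 0.995), and for Atp4b Fbxl14, Camk2g and Nrip1 (0.998, 0.995 and 0.988). For Mog they were 1700013G24Rik, Tpd52l2 and As3mt (0.998, 0.993 and 0.992). Nr1d1, a circadian repressor gene, rose by 0.43, and did not pass when KO replicate 1 (0.29, limma adjusted p = 0.077) or WT replicate 1 (0.36, 0.065) was left out. The transcript 1700013G24Rik rose by 0.35, and lost its call without the same 4 arrays as Mog did, with adjusted p of 0.068 to 0.099 by limma. These likenesses describe 6 arrays picked over from 13925 genes, and between 24 and 117 genes had r above 0.95 with each antigen. The genes were picked by likeness on these same arrays. Their calls and leave-one-out results are therefore not independent of those of the antigen.

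Some markers of other cells differed between the groups. The gate of CD45- cells is meant to remove leukocytes, and that on Ly51 most cortical epithelial cells. The counts below stand beside 14.1% lower and 12.0% higher over all tested genes. Of 2 tested B cell markers 2 rose, Cd79b by 0.24 and Pax5 by 0.31, while the dim Cd79a and Ms4a1 stood at -0.11 and -0.48 (limma adjusted p with no filter 0.37 and 0.0052). The summed linear intensity of the 4 B cell markers on the array was 480 to 508 in KO and 423 to 439 in WT. Of 7 thymocyte markers 1 fell, Cd3g by 1.40, and their sum was 637 to 891 in KO and 893 to 1560 in WT. Dendritic cell and macrophage markers summed to 3347 to 3434 in KO and 3405 to 3782 in WT, with 2 of 6 tested lower and 1 higher. Of the 2 that were lower, 1 was above the filter on no KO array, so it could only fall. Fibroblast and endothelial markers summed to 1545 to 1981 in KO and 1286 to 1548 in WT, with 1 of 6 lower and 1 higher. Cortical epithelial markers summed to 1746 to 2040 in KO and 2286 to 2568 in WT. Of the 6 on the array 4 were tested, with 2 lower and 1 higher, and 2 were dim, among them the cortical proteasome gene Psmb11. The part of these cells in the values of Mog, Tg and the other antigen genes was not tested.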

How the data were processed

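Expression was measured on 1 array for each of 6 mice, 3 Aire KO and 3 Aire WT. Per the labels' protocols, RNA was isolated with Trizol, amplified in 2 rounds and labelled with biotin. The authors deposited linear-scale intensities, 1 per probe set, from RMA (named in the submitters' processing notes). For RMA no version or build is given in the sources used here. RMA compresses the folds of dim genes and gives no detection call. Here the deposited intensities were taken to log2 with a pseudocount of 0. Of 35512 probe sets, 21789 have 1 gene symbol in the platform annotation, 1621 several and 12102 none. The brightest 1-symbol probe set, by mean over the arrays, stood for a gene, and each antigen gene has only 1. Genes were tested with limma 3.58.1 in R 4.3.3 (lmFit and eBayes, two-sided, Benjamini-Hochberg over all tested genes), with genotype as the only factor, after the filter stated in the results. The script was tested on simulated data. Figures were drawn with matplotlib 3.10.9. The antigen genes and lists were chosen with earlier results of these data known. Named are the antigen genes, Aire, the nearest tested neighbour on each side of each antigen, the 3 genes most like each tested antigen, the called genes of each list with the lowest adjusted p (up to 5) and a fixed set of organ genes. Marker genes and Bpifb9a were named after their values were seen, as were the genes dim in the main fit outside the antigen genes and the fixed set. Alternatives were no filter, the 60th percentile, repeated quantile normalization, median centring, an offset of 32, the mean of probe sets, trended and robust variances, array weights, the replicate block and each array left out. No scan date or batch is given in the labels.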

Additional observations from a re-analysis of the deposited data

How the results depend on the processing

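The count of antigen genes called higher was 1, and it was 0 with the stricter filter, which sets Mog aside as dim, and between 0 and 1 when 1 array was left out. The count called lower was 0 by limma in every fit run. Of the 5 tested genes 2, Tg and Mog, had an unadjusted limma p under 0.05. Over all tested genes 26.1% passed 0.05 even after adjustment, so such unadjusted values were common. Gad1, Tg, Atp4a and Atp4b passed in none of their 59 alternative fits and kept their direction in all of them, but their size moved: Gad1 ran between -0.32 and -0.12, Tg between 0.12 and 0.29, Atp4a between -0.25 and -0.08 and Atp4b between -0.28 and -0.08. The dim genes Rbp3 and Sag changed sign when 1 array was left out, to 0.01 without WT replicate 1 and to -0.03 without KO replicate 2. Over all genes, 1676 were called higher, and between 1052 (without KO replicate 1) and 1547 when 1 array was left out. On the 7 lists 20 genes fell, and 10 with the stricter filter, which tests fewer genes. The 11 that rose numbered between 7 (without KO replicate 1) and 12 with 1 array left out. Some uncalled values near 0 changed sign: with 1 array left out Mag ran between -0.112 and 0.016, Gdf10, next to Rbp3, between -0.020 and 0.064, and Thnsl1, next to Gad2, between -0.058 and 0.054. Thnsl1 was also at 0.0216 with repeated quantile normalization and 0.0225 with median centring. Sla was called with array weights (0.27, limma adjusted p = 0.020) and without WT replicate 3 (0.27, 0.048), Dgkd, next to Sag, with array weights (0.23, 0.043), and Phf20l1, next to Tg, without KO replicate 2 (-0.31, 0.049). Same-numbered KO and WT arrays did not deviate together: the correlations of their deviations from the group means were -0.02, -0.21 and -0.06, so the number is not taken as a pair. With the replicate block Mog kept its call (0.36, limma adjusted p = 0.020), and 1742 genes fell and 1368 rose. RMA values hold no background measure, so what dim antigens could show is limited by a signal that may be background.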

Other observations

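Of the 46 list genes too dim for the filter, 6 passed limma when all genes were fitted with no filter, and all 6 were lower in KO. That fit called 19.9% of all 19938 genes, 2191 as lower and 1781 as higher. The 6 genes were not part of the counts above. Recoverin (Rcvrn), a calcium sensor of photoreceptors and, like Sag and Rbp3, a retinal autoantigen, had 5.16, 5.19 and 5.02 in KO mice, against 5.57, 5.47 and 5.85 in WT mice, a fall of 0.51 (limma adjusted p = 0.0059, no filter). The gastric lipase gene Lipf had 4.14, 4.27 and 3.99 in KO mice, against 5.41, 5.85 and 6.02 in WT mice, a fall of 1.63. Slc26a7, an anion transporter of parietal cells, fell by 0.42. The oligodendrocyte genes Opalin and Ermn fell by 0.35 and 0.53, and Svs2, a seminal vesicle protein gene, fell by 0.75. With an offset of 32 the falls of Rcvrn, Lipf, Opalin, Ermn and Svs2 were 0.29, 0.80, 0.21, 0.27 and 0.39, since an offset shrinks differences at this brightness.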
